A study of Mus musculus with 12 samples.

Results

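The genes described here mark dendritic cells and their subsets in prostate tumours of mice. The set was given by name and holds 10 of the 23479 gene symbols in the deposited table of raw read counts: Flt3, Zbtb46, Xcr1, Clec9a, Batf3, Cd209a, Ccr7, Fscn1, Ccl17 and Ccl22. All 10 were found and had enough counts to be tested, so none was lost to the filter on low counts. Bulk RNA came from 12 prostate tumours that arose after 100000 PTE-82 cells, a TMPRSS2-ERG-positive mouse prostate cancer line, were injected into the prostates of C57BL/6J mice. There were 3 tumours in each of 4 groups. The first group received an antibody that blocks CSF1, the growth factor of macrophages (anti-CSF1), on days 9 and 14. The second received Lupron, a drug that suppresses testicular testosterone, at 0.6 mg per mouse on day 4. The third received both (the combination), and the fourth received IgG as control antibody. Below, the antibody means anti-CSF1, and tumours without antibody, or with no antibody, are those of the Lupron and IgG groups. All tumours were taken on day 17 after perfusion of the mice with PBS. The days of the IgG doses, and whether mice given Lupron alone also received IgG, are not stated in the labels. PTE-82 is a single line in 1 mouse strain, which limits the model.

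Dendritic cells take up antigen in tissue and present it to T cells. They depend on the growth factor FLT3L and its receptor FLT3, whereas macrophages depend on CSF1 and its receptor CSF1R. Conventional type 1 dendritic cells (cDC1) cross-present antigen to CD8+ T cells, and type 2 cells (cDC2) mainly serve CD4+ T cells. Either kind can mature, and then switches on the lymph node homing receptor CCR7, the actin-bundling protein fascin and, in many settings, the chemokines CCL17 and CCL22.

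The libraries held 20584363 to 29965355 counts. Levels are given as CPM, read counts scaled to the TMM-adjusted library total, and differences as log2 fold changes ± standard error from edgeR's quasi-likelihood test, where a gene passed at a p under 0.05 after Benjamini-Hochberg adjustment over 15082 genes. The tumour gene Erg and the epithelial keratin genes Krt8 and Krt18 had reads in every group. Such reads do not show how much of each sample was tumour and how much was normal gland. A pair of tumours stood apart. IgG replicate 3 had a proliferation gene level of 2.60 (the mean over genes of log2(CPM + 1)), compared with 6.17 to 7.22 elsewhere, and a smooth muscle level of 9.98, compared with 3.99 to 7.96. Its prostate epithelium level was also the highest of the 12, at 7.44. In Lupron replicate 2, 7 seminal vesicle genes took 28.0% of all counts, against 0.0268% to 9.91% elsewhere, and its TMM factor was the lowest, at 0.772. Of the 10 genes, 6 were highest in Lupron replicate 2 and 4 were lowest in IgG replicate 3. On CPM without TMM scaling, Lupron replicate 2 was highest for 3 genes, and IgG replicate 3 was again lowest for 4.

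The stretches of 250 bases before the transcript start in RefSeq (GRCm38.p6, the build mm10) are shown for Ccl22, Ccl17 and Batf3. Ccl22 and Ccl17 both lie on chromosome 8, with 57991 bases between the end of Ccl22 and the start of Ccl17, and both encode ligands of the receptor CCR4. Batf3 is shown because it and Ccl17 were the members whose stretch held the STAT half-site pair TTCNNNGAA, which is printed in capitals. The search covered both strands, and the table has such a stretch for 9 of the 10 genes, all but Ccr7.
Ccl22 (chr8:94745434-94745683, plus strand): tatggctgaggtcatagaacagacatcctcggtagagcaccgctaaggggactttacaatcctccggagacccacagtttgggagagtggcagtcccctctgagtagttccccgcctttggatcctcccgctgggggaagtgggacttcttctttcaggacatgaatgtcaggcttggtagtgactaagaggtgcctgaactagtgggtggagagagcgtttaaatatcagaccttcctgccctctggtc
Ccl17 (chr8:94810203-94810452, plus strand): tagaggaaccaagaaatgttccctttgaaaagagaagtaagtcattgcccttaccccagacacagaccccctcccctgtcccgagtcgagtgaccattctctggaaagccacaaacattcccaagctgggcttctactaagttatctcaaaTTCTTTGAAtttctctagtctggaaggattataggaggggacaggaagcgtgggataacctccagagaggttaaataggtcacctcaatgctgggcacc
Batf3 (chr1:191098164-191098413, plus strand): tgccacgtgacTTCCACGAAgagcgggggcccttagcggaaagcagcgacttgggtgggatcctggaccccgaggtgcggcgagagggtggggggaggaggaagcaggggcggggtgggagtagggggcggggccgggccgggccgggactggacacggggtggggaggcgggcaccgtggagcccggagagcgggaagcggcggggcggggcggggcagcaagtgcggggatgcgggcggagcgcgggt
The match lay 99 bases before the transcript start used for Ccl17 and 239 bases before that of Batf3. The stretches of Ccl17 and Zbtb46 precede a start inside the bounds of the gene, which has other starts, whereas the distance between Ccl22 and Ccl17 was measured to the outer bound. The same letters were found in 7.02% of 32851 mouse promoters of this length. The Ccl22 stretch had no match to any of the 4 motifs searched. The AP-1 motif TGANTCA was found before Zbtb46, 61 bases from that inner start, and in 6.75% of promoters. TATAAA on either strand was found before Xcr1, Clec9a, Cd209a and Fscn1, and in 12.4% of promoters. Fscn1 had it on its own strand, 31 bases before the start. Xcr1, Clec9a and Cd209a had the reverse complement, TTTATA, at 160, 226 and 184 bases. The kappaB motif was found in 3.9% of promoters and in 0 of the 9 here. These matches describe letters in a window and are no measure of binding.

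On the same build, Cd209a lies at chr8:3743395-3748984, away from Ccl22 at chr8:94745684-94751388 and Ccl17 at chr8:94809380-94812038 on that chromosome. Fscn1 at chr5:142960355-142973189 and Flt3 at chr5:147330741-147400489 share chromosome 5. Batf3 lies at chr1:191098414-191108943, Zbtb46 at chr2:181371009-181493262, Clec9a at chr6:129408862-129424764, Xcr1 at chr9:123852315-123862029 and Ccr7 at chr11:99144199-99155077. The values are reads over the annotated gene, and no isoform was told apart.

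Per length of exon, Fscn1 stood far above the other genes, and Ccl17 came next. Averaged over 12 tumours, Fscn1 had 58.4 CPM per kilobase of exon, Ccl17 10.6, Ccr7 2.48, Ccl22 2.14, Batf3 1.31, Cd209a 0.663, Xcr1 0.556, Flt3 0.400, Clec9a 0.394 and Zbtb46 0.364 CPM per kilobase. Ccr7 and Ccl22 differed by less than their SD within groups, and with Lupron Batf3, at 2.10 ± 0.491, exceeded Ccl22, at 1.36 ± 0.566 CPM per kilobase (SD, n = 3). The order from Cd209a down to Zbtb46 is not resolved either, since the SD within a group reached 1.20 CPM per kilobase for Cd209a and 0.494 for Xcr1. In CPM, Fscn1 ranked at the 93.4 percentile of tested genes and the other 9 genes between the 10.3 and 26.4 percentiles. All but Fscn1 thus rest on few reads, from 321 counts in 12 libraries for Cd209a to 1589 for Ccl17, against 56200 for Fscn1. In bulk RNA, fewer dendritic cells and less RNA per cell cannot be told apart.

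**Figure D1:**
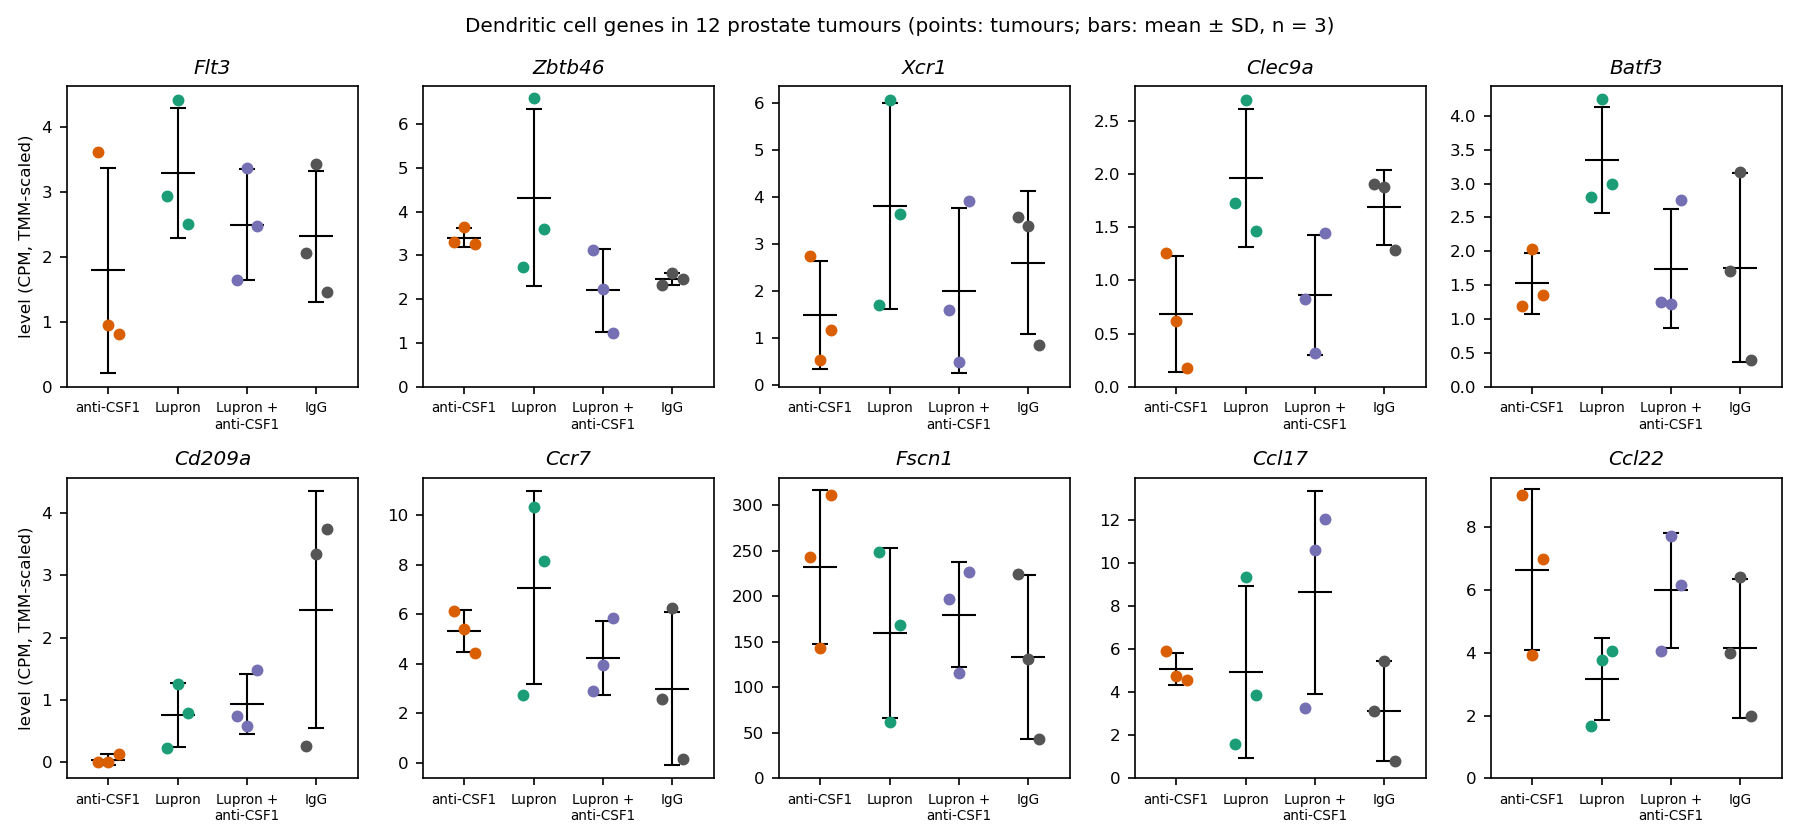
Levels of the 10 genes in each tumour, in TMM-scaled CPM on linear axes, for anti-CSF1, Lupron, the combination and IgG. Points are tumours and bars are means ± SD (n = 3). Cd209a is near 0 in the 3 anti-CSF1 tumours, and Clec9a lies at or below 1.45 CPM in the 6 tumours given the antibody.

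Flt3 and Zbtb46 are shared by both conventional subsets. Flt3, the FLT3L receptor, stood at 3.61, 0.948 and 0.818 CPM in the anti-CSF1 tumours, 2.94, 4.42 and 2.50 CPM with Lupron, 1.64, 3.36 and 2.48 CPM with the combination, and 2.05, 3.42 and 1.46 CPM with IgG. A pair of anti-CSF1 tumours were the lowest of the 12, yet the third was next to the highest, so the groups overlapped. The antibody effect averaged over tumours with and without Lupron, 6 against 6, was −0.38 ± 0.44 (edgeR, adjusted p = 0.637, 95% interval −1.35 to 0.59).

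Zbtb46, a transcription factor of the conventional dendritic cell lineage that endothelial cells also express, had 3.30, 3.65 and 3.27 CPM with anti-CSF1, 2.74, 6.60 and 3.61 CPM with Lupron, 3.13, 2.24 and 1.24 CPM with the combination, and 2.32, 2.59 and 2.46 CPM with IgG. All 3 anti-CSF1 tumours and all 3 Lupron tumours lay above all 3 IgG tumours. All 3 tumours with the combination lay below all 3 with anti-CSF1. These comparisons were without overlap for 23.9%, 19.7% and 9.97% of all genes. On CPM without TMM scaling the combination and anti-CSF1 overlapped. Combination replicate 1 then had 3.38 CPM, and anti-CSF1 replicates 1 and 3 had 3.24 and 3.34 CPM. The interaction of Lupron with the antibody was −1.44 ± 0.63 on the log2 scale (unadjusted p = 0.0436, adjusted p = 0.724, edgeR) and did not pass. Averaged over Lupron, the antibody effect was −0.25 ± 0.31 (adjusted p = 0.668). The summed level of 9 endothelial genes was 411 to 643 CPM with anti-CSF1, 226 to 375 CPM with Lupron, 272 to 428 CPM with the combination and 211 to 470 CPM with IgG. None of the 9 was called with the antibody, and their part in the Zbtb46 values was not tested.

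The cDC1 genes Xcr1, Clec9a and Batf3 had negative estimates with the antibody, and 0 of these 3 passed the test. Clec9a, a receptor for actin exposed on dead cells, stood at 1.26, 0.616 and 0.178 CPM with anti-CSF1, 1.72, 2.70 and 1.46 CPM with Lupron, 0.821, 0.320 and 1.45 CPM with the combination, and 1.90, 1.88 and 1.28 CPM with IgG. Of the 6 tumours given the antibody, 5 lay below all 6 others, and replicate 3 of the combination was the exception. Its antibody effect was −1.23 ± 0.53 (95% interval −2.38 to −0.074, unadjusted p = 0.039, adjusted p = 0.238, edgeR). Clec9a did not overlap between anti-CSF1 and IgG, nor between the combination and Lupron, comparisons without overlap for 23.9% and 12.8% of all genes. How many of all genes had 5 of the 6 antibody tumours below all others was not counted.

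Xcr1, the receptor for the chemokine XCL1, had 2.76, 0.521 and 1.17 CPM with anti-CSF1, 1.69, 6.08 and 3.65 CPM with Lupron, 1.60, 0.480 and 3.92 CPM with the combination, and 3.58, 3.38 and 0.854 CPM with IgG. The highest tumour had 12.7 times the level of the lowest, and the groups overlapped in every comparison. The antibody effect was −0.86 ± 0.61 (adjusted p = 0.444, edgeR). Batf3, a transcription factor that cDC1 need to develop, had 1.19, 2.04 and 1.35 CPM with anti-CSF1, 2.81, 4.25 and 2.99 CPM with Lupron, 1.25, 1.23 and 2.75 CPM with the combination, and 1.71, 3.17 and 0.392 CPM with IgG. All 3 tumours with the combination lay below all 3 with Lupron, by −0.93 ± 0.67 (adjusted p = 1.00, edgeR), while anti-CSF1 and IgG overlapped. Averaged over Lupron, the antibody effect was −0.57 ± 0.47 (adjusted p = 0.508).

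Cd209a, a lectin gene of cDC2 and of dendritic cells that arise from monocytes, was nearly absent with anti-CSF1 alone. It had 0, 0 and 0.142 CPM with anti-CSF1, 0.237, 1.26 and 0.799 CPM with Lupron, 0.743, 0.587 and 1.48 CPM with the combination, and 0.266, 3.34 and 3.74 CPM with IgG. The 0 counts in anti-CSF1 replicates 1 and 2 allow levels of up to 0.102 and 0.142 CPM (3 counts, counting error only). All anti-CSF1 tumours lay below all tumours of the other 3 groups, with 4 counts in all, against 52 with Lupron, 73 with the combination and 192 with IgG. How many of all genes share this pattern was not counted. The fitted difference of anti-CSF1 from IgG was −5.50 ± 1.39 (unadjusted p = 0.00221, adjusted p = 0.0903, edgeR), which missed the threshold and depends on how the fit treats counts near 0.

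Among tumours given Lupron, Cd209a overlapped between the combination and Lupron alone, which differed by 0.31 ± 1.10 (95% interval −2.12 to 2.74). The interaction was 5.81 ± 1.75 (unadjusted p = 0.00665, adjusted p = 0.513, edgeR), and the antibody effect averaged over Lupron was −2.59 ± 0.87 (adjusted p = 0.158). Cd209a was the 1 gene of the 10 that other settings called. DESeq2 gave adjusted p = 0.000579 for anti-CSF1 against IgG, 0.0235 for the averaged antibody effect and 0.0419 for the interaction, comparisons in which it called 12.3%, 9.54% and 1.26% of genes. Without IgG replicate 1, the lowest IgG tumour for this gene, edgeR gave adjusted p = 0.0149 and 0.0431 for the first and second of these. Over all 12 fits that each left out 1 tumour, edgeR's adjusted p ran from 0.0149 to 0.291 for anti-CSF1 against IgG, from 0.0431 to 0.327 for the averaged effect and from 0.0952 to 1.00 for the interaction. The IgG replicates 2 and 3, where Cd209a was highest, also had the highest summed smooth muscle levels, at 2783 and 12337 CPM, against 225 to 1629 CPM in the other 10 tumours. They were also highest for prostate secretion genes, at 18590 and 58398 CPM, against 100 to 11867 CPM, and for prostate epithelium genes, at 935 and 2353 CPM, against 209 to 462 CPM. The part of these tissues in the Cd209a values was not tested. Cd209a belongs to a cluster of similar lectin genes, between which read counting may have split reads.

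Among the 10 genes, those of mature dendritic cells had estimates from near 0 to above 0 with the antibody. Ccr7 guides dendritic cells and T cells to lymph nodes. It had 6.12, 5.40 and 4.44 CPM with anti-CSF1, 2.74, 10.3 and 8.16 CPM with Lupron, 2.89, 3.95 and 5.85 CPM with the combination, and 2.59, 6.26 and 0.142 CPM with IgG. The groups overlapped in every comparison, and the lowest value, from 4 counts, was that of IgG replicate 3. The antibody effect was 0.047 ± 0.61 (95% interval −1.30 to 1.40, adjusted p = 0.974, edgeR), and it was −0.035 with upper-quartile scaling.

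Fscn1, which encodes fascin, is made by mature dendritic cells and by many tumour and stromal cells. It had 243, 143 and 311 CPM with anti-CSF1, 248, 61.6 and 169 CPM with Lupron, 197, 115 and 227 CPM with the combination, and 224, 131 and 43.7 CPM with IgG. The groups overlapped, and the effect of the antibody was 0.49 ± 0.42 (adjusted p = 0.522, edgeR). Which cells gave these reads was not tested.

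Ccl17 and Ccl22, whose promoters are printed above, encode chemokines that draw CCR4-bearing T cells, regulatory T cells among them. Ccl17 had 5.92, 4.74 and 4.59 CPM with anti-CSF1, 1.59, 9.35 and 3.86 CPM with Lupron, 3.25, 10.6 and 12.0 CPM with the combination, and 3.12, 5.43 and 0.783 CPM with IgG. A pair of tumours with the combination were the highest of the 12, and all groups overlapped. The antibody effect was 0.76 ± 0.53 (adjusted p = 0.436, edgeR).

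Ccl22 had 9.01, 3.93 and 7.00 CPM with anti-CSF1, 1.66, 3.79 and 4.06 CPM with Lupron, 4.07, 7.73 and 6.16 CPM with the combination, and 4.00, 6.43 and 1.99 CPM with IgG. The 3 tumours with the combination lay above the 3 with Lupron, the nearest pair at 4.07 and 4.06 CPM, and anti-CSF1 and IgG overlapped. The effect of the antibody was 0.80 ± 0.37 (95% interval −0.0023 to 1.61, unadjusted p = 0.0505, adjusted p = 0.263, edgeR).

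**Figure D2:**
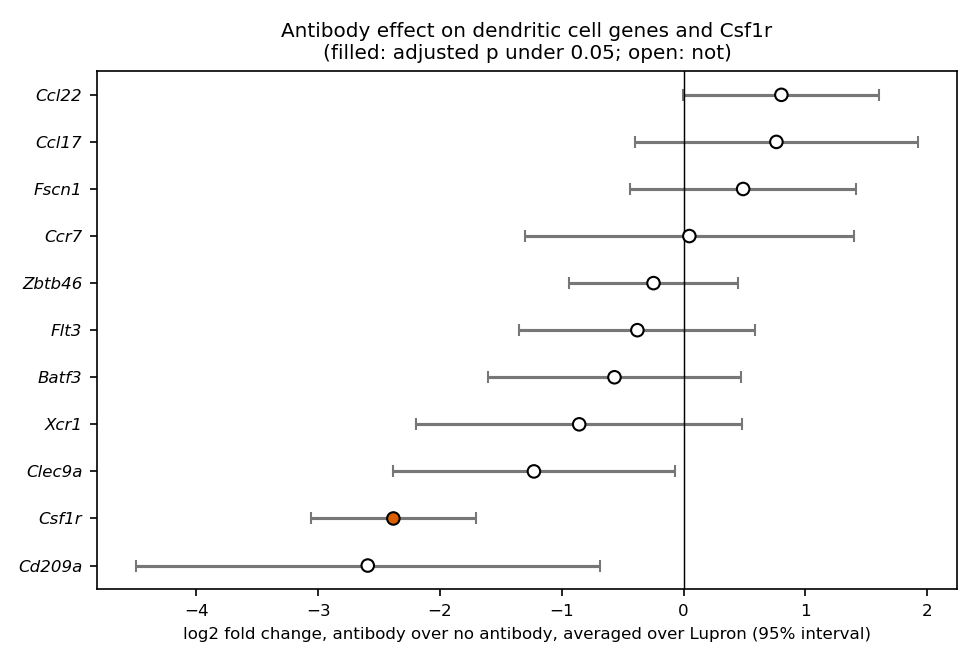
Antibody effect averaged over Lupron for the 10 genes and Csf1r, as log2 fold change (antibody over no antibody) with a 95% interval derived from edgeR's F test. The filled point passed at an adjusted p under 0.05. Only Csf1r is filled, and the 10 genes run from −2.59 for Cd209a to 0.80 for Ccl22.

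With the antibody averaged over Lupron, 0 of the 10 genes passed edgeR's test, in a comparison where 1.87% of all tested genes did. At an unadjusted p under 0.05 there were 2, Clec9a and Cd209a, both lower, against 13.7% of all genes lower at that level, and DESeq2 called 1, Cd209a, against 9.54% of the genes to which it gave an adjusted p. The estimates were negative for 6 genes, against 47.8% of all genes, and positive for 4, with a median of −0.31, against 0.02 over all tested genes. None of the 10 separated the 6 antibody tumours from the 6 others, which 2.39% of all genes did.

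The remaining comparisons called none of the 10 by edgeR either. Lupron averaged over the antibody called 0% of all genes (1366 at an unadjusted p under 0.05, 12 by DESeq2), and 0 of the 10 were under 0.05 unadjusted. Estimates for Lupron were positive for 8 genes, against 47.7% of all genes, and negative for Fscn1 (−0.054 ± 0.42) and Ccl22 (−0.27 ± 0.36), with a median of 0.47. The largest was that of Cd209a, at 1.22 ± 0.83 (adjusted p = 0.576). Single tumours bear on these estimates, since Lupron replicate 2 was highest for 6 of the 10 and IgG replicate 3 lowest for 4. The interaction called 0% of all genes (1021 unadjusted, 188 by DESeq2), and Cd209a and Zbtb46 were the 2 of the 10 under 0.05 unadjusted. Anti-CSF1 against IgG called 0.00663% of all genes (3446 unadjusted, 1841 by DESeq2), and Cd209a was the 1 gene of the 10 under 0.05 unadjusted. In that comparison 3 of the 10 did not overlap (Zbtb46 higher, Clec9a and Cd209a lower), against 23.9% of all genes.

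The combination against Lupron called 0% of all genes (642 unadjusted, 236 by DESeq2), with 0 of the 10 under 0.05 unadjusted, and 3 of the 10 did not overlap (Ccl22 higher, Clec9a and Batf3 lower), against 12.8% of all genes. Lupron against IgG called 0% (2478 unadjusted, 404 by DESeq2), with 0 of the 10 under 0.05 unadjusted and 1 without overlap, Zbtb46, against 19.7%. The combination against anti-CSF1 called 0% (294 unadjusted, 6 by DESeq2). There Cd209a was higher by 4.12 ± 1.34 (unadjusted p = 0.0105, adjusted p = 1), and it and Zbtb46, which was lower, were the 2 of the 10 without overlap, against 9.97%. The combination against IgG called 0.00663% (3922 unadjusted, 2094 by DESeq2), with 0 of the 10 under 0.05 unadjusted and 0 without overlap, against 27.8%. The estimate furthest from 0 there was that of Ccl17, at 1.47 ± 0.76 (adjusted p = 0.236). Comparisons that share a group of tumours are not independent of each other.

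Macrophage genes moved with the antibody, and dendritic cell genes were set against one of them within each tumour. Csf1r, the CSF1 receptor gene, had 21.1 ± 8.89 CPM with anti-CSF1, 108 ± 29.3 CPM with Lupron, 19.6 ± 4.47 CPM with the combination and 104 ± 48.6 CPM with IgG (SD, n = 3), and it fell by 2.38 ± 0.31 on the log2 scale with the antibody (adjusted p = 0.00798, edgeR). Among all tested genes 1.79% fell with the antibody, and the median was 0.02. Of 13 macrophage markers, 10 fell, none rose, and the median was −2.31. Their summed level was 327 to 474 CPM with anti-CSF1, 1521 to 1866 CPM with Lupron, 282 to 389 CPM with the combination and 548 to 1882 CPM with IgG. The ratio of each gene's reads to those of Csf1r was taken in each tumour, on a log2 scale with 0.5 counts added to each. Csf1r was chosen with its fall known, so a gene that does not change has a higher ratio with the antibody, and no test is given.

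Over the other 15081 tested genes, the log2 ratio to Csf1r differed between antibody and no antibody by a median of 2.40, with quartiles of 1.98 and 2.66. The difference was 3.38 for Ccl17, 3.23 for Ccl22, 3.05 for Fscn1 and 3.04 for Ccr7, each above the upper quartile. It was 2.12 for Zbtb46, and 1.96 for Batf3, 1.86 for Flt3, 1.35 for Xcr1 and 0.88 for Clec9a lay below the lower quartile. Cd209a had the lowest of the 10, at −0.028, with the antibody tumours spread from −10.6 to −3.72 and the others from −9.10 to −3.79. All 6 antibody tumours stood above all 6 without it for 3 of the 10, Fscn1, Ccl17 and Ccl22, against 63.1% of all tested genes, a larger share than among the 10. Without IgG replicate 3, the difference was 1.01 for Clec9a, 0.51 for Cd209a and 2.49 for Ccr7.

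**Figure D3:**
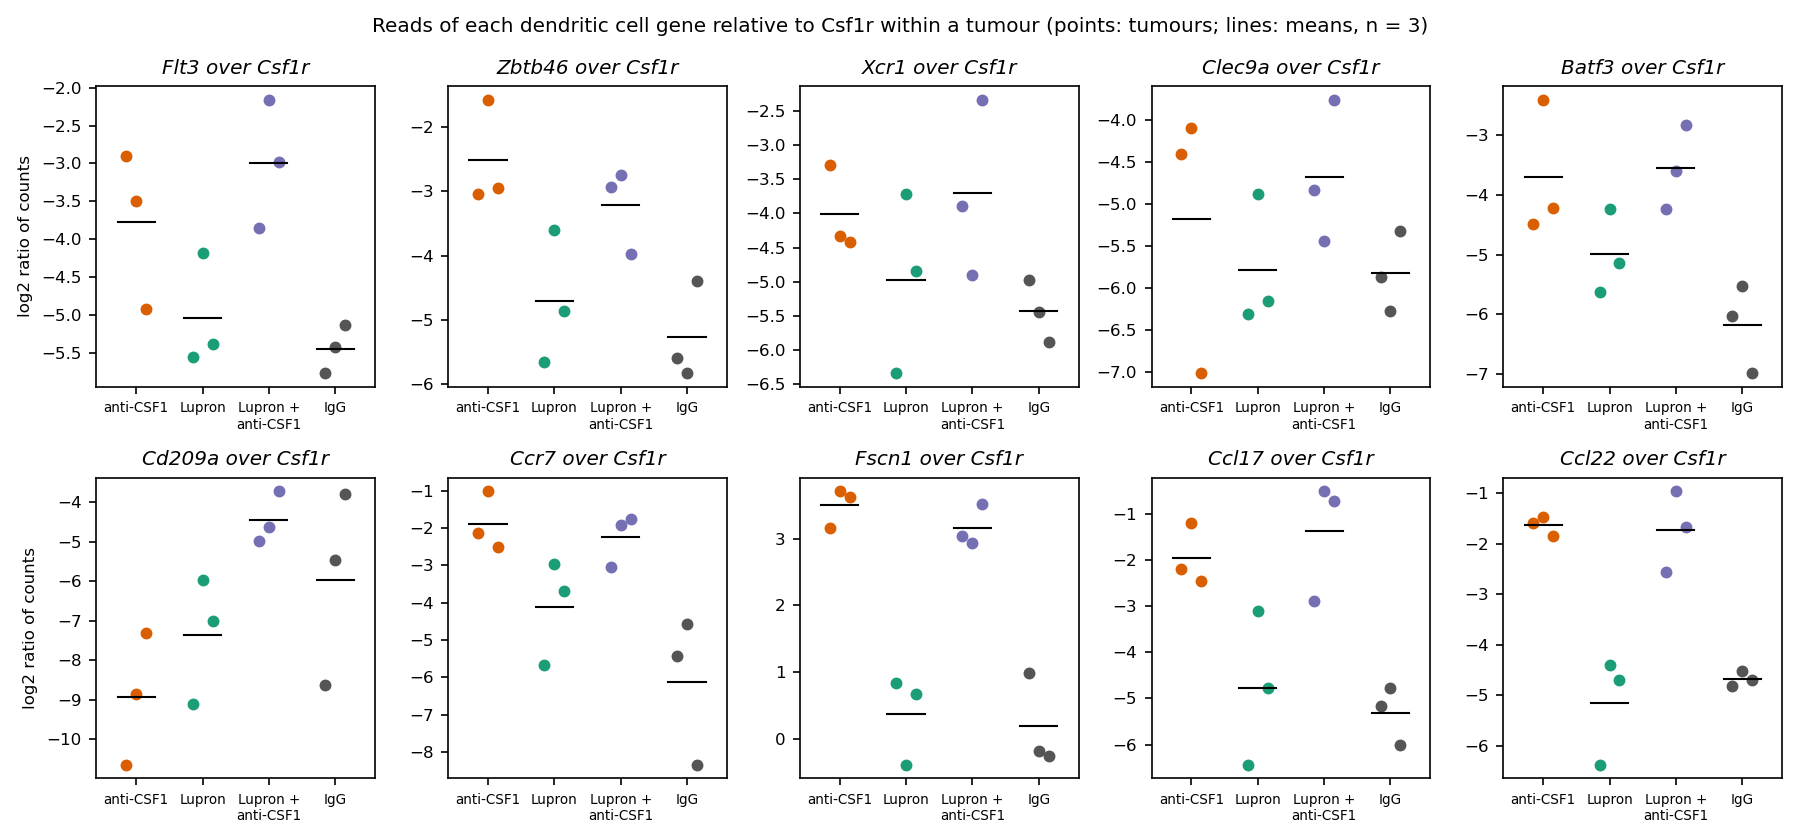
Log2 ratio of the reads of each gene to those of Csf1r in each tumour, by group from anti-CSF1 to IgG. Points are tumours and lines are group means (n = 3), and each panel has its own axis. For Fscn1, Ccl17 and Ccl22 the 6 tumours with the antibody lie above the 6 without it, as they do for 63.1% of all tested genes.

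The chemokine genes were also set against the cDC1 genes within each tumour. The summed reads of Ccl17 and Ccl22, divided by those of Xcr1, Clec9a and Batf3, gave 2.87, 2.73 and 4.29 with anti-CSF1, 0.522, 1.01 and 0.979 with Lupron, 1.99, 9.05 and 2.24 with the combination, and 0.989, 1.41 and 1.10 with IgG. All 6 tumours with the antibody, from 1.99 upward, lay above all 6 without it, which reached 1.41. IgG replicate 3 lay among the other tumours without antibody on this scale, with both sums low, at 2.78 CPM for the chemokines and 2.53 CPM for the cDC1 genes. The genes in this ratio were picked after their values were seen, those above with positive and those below with negative antibody estimates. A higher ratio with the antibody was thus built in, and it is given with no test.

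**Figure D4:**
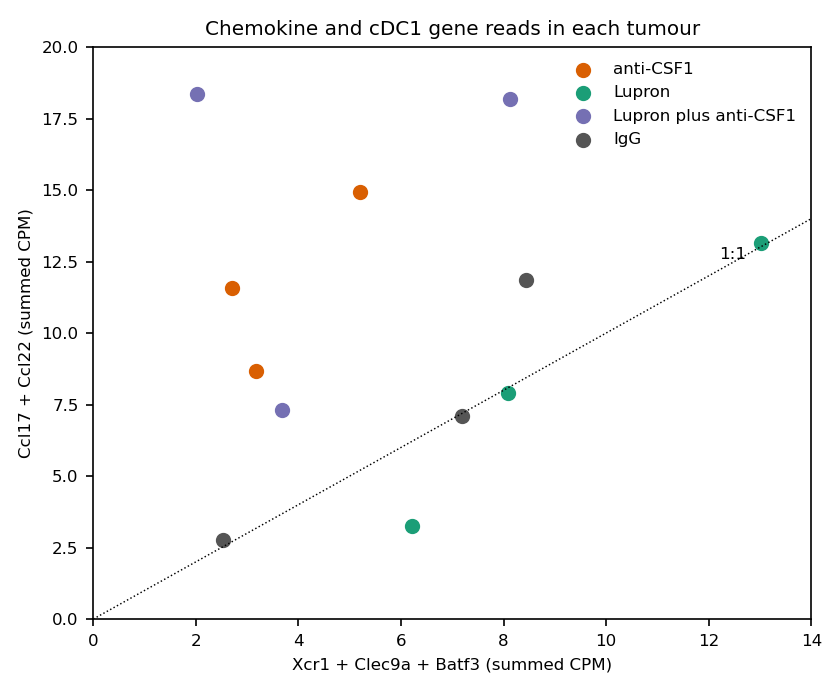
Summed CPM of Ccl17 and Ccl22 (vertical) against that of Xcr1, Clec9a and Batf3 (horizontal), 1 point per tumour, coloured by group, with a dotted line of equal sums. The 6 tumours given the antibody lie above the line by a factor of 1.99 or more, and in the Lupron and IgG tumours the vertical sum is 0.522 to 1.41 times the horizontal one. The genes in both sums were picked after their values were seen.

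Other genes of the same cells were read from lists written from general knowledge. Of 10 further cDC1 genes, 2 fell with the antibody, none rose, and the median was −0.87. Over all 15082 tested genes, the background for this list and those below, 1.79% fell and 0.0796% rose, with a median of 0.02. Cadm1, an adhesion molecule of cDC1 that other cells also carry, fell by 2.29 ± 0.31 on the log2 scale (adjusted p = 0.00798, edgeR), with 9.65 ± 4.90 CPM with anti-CSF1, 43.8 ± 2.41 CPM with Lupron, 9.95 ± 3.30 CPM with the combination and 52.7 ± 26.1 CPM with IgG (SD, n = 3). Irf8, a transcription factor of cDC1, monocytes, macrophages and B cells, fell by 0.71 ± 0.16 (adjusted p = 0.0454), but passed in 2 of the 12 fits that each left out 1 tumour, those without IgG replicate 1 or IgG replicate 3. Wdfy4, which cDC1 need for cross-presentation, had −1.17 ± 0.30 (adjusted p = 0.0795), Naaa −1.04 ± 0.30 (adjusted p = 0.116), and Gcsam −1.68 ± 0.65 (adjusted p = 0.204). The count called lower was 3 without IgG replicate 3 (with Irf8 and Wdfy4), 4 without IgG replicate 1 and 3 without anti-CSF1 replicate 1 (both with Wdfy4 and Naaa), and 1, Cadm1, in each of the other 9 fits that left out a tumour.

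Of 7 tested cDC2 genes, 1 fell, none rose, and the median was −1.58. Mgl2, a lectin of cDC2 and of some macrophages, fell by 1.87 ± 0.25 (adjusted p = 0.00798, edgeR), with 6.12 ± 2.12 CPM with anti-CSF1, 18.8 ± 6.91 CPM with Lupron, 3.61 ± 0.934 CPM with the combination and 15.7 ± 3.16 CPM with IgG (SD, n = 3). Its close relative Clec10a had a 4.01-fold lower estimate (adjusted p = 0.0636), Sirpa had −1.39 ± 0.32 (adjusted p = 0.0545) and Itgax, which encodes CD11c, had −1.58 ± 0.52 (adjusted p = 0.153). Macrophages express these 3 as well. Irf4, a transcription factor of cDC2, had −1.58 ± 0.68 (adjusted p = 0.242). The count called lower was 3 without IgG replicate 3 (with Itgax and Sirpa), 3 without IgG replicate 1 (with Clec10a and Sirpa) and 2 without anti-CSF1 replicate 1 (with Sirpa).

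Of 19 further genes of mature dendritic cells, none passed in either direction, and the median was −0.38. Without IgG replicate 3, Cd83 and Cd86 were called lower (adjusted p = 0.0118 and 0.000927, edgeR) and the median was −0.55, and without IgG replicate 1 Socs2 was called higher. The smallest p-values were those of Birc3 (−0.98 ± 0.25), Cd83 (−1.37 ± 0.42), Cd86 (−1.41 ± 0.44) and Il15ra (−0.49 ± 0.22). Of the 19 estimates, 14 were below 0 and 5 were above it. The costimulatory gene Cd86 and the activation marker Cd83, named here for their small p-values, were among those below 0. Ccr7, Fscn1, Ccl17 and Ccl22, which are not in this list, had estimates above 0, and none of them passed. The estimate for Ccr7, 0.047 ± 0.61, fell below 0 in 4 of the 12 fits that each omitted a tumour. A difference between these genes and the list was not tested. Of 9 genes of plasmacytoid dendritic cells, none passed, with a median of −0.27, which was 0.07 without IgG replicate 3 and 0.03 without IgG replicate 2. Tcf4 was called higher without IgG replicate 1. The list had estimates from −2.31 ± 1.16 for Ly6d upward, among them Tcf4 at 0.66 ± 0.33, Bst2 at 0.63 ± 0.38 and Spib at −1.70 ± 0.99.

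Among 6 tested partner ligands and receptors, 1 fell, none rose, and the median was −0.03. Csf2ra, a chain of the GM-CSF receptor, fell by 1.47 ± 0.14 (adjusted p = 0.00306, edgeR). The other chain, Csf2rb, had −0.85 ± 0.27, and GM-CSF itself, Csf2, had 1.15 ± 0.92. Flt3l, which encodes the ligand of FLT3, had 4.03 ± 0.623 CPM with anti-CSF1, 5.76 ± 1.70 CPM with Lupron, 5.15 ± 0.770 CPM with the combination and 4.87 ± 1.93 CPM with IgG (SD, n = 3), an antibody effect of −0.22 ± 0.26. Xcl1, the ligand of XCR1, had 0.73 ± 0.46, and Ccr4, the receptor for CCL17 and CCL22, 0.16 ± 0.70. Without IgG replicate 3, Csf2rb was called lower as well (adjusted p = 0.00726), and the list's median lay between −0.29 and 0.20 over the fits that each omitted a tumour. Cadm1, Mgl2 and Csf2ra passed in all 12 fits that left out a tumour. With Lupron, no gene of these 5 lists passed. The smallest p-values there were those of Il15ra (0.60 ± 0.22), Klf4 (−0.46 ± 0.21) and Cd274 (0.47 ± 0.22).

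**Figure D5:**
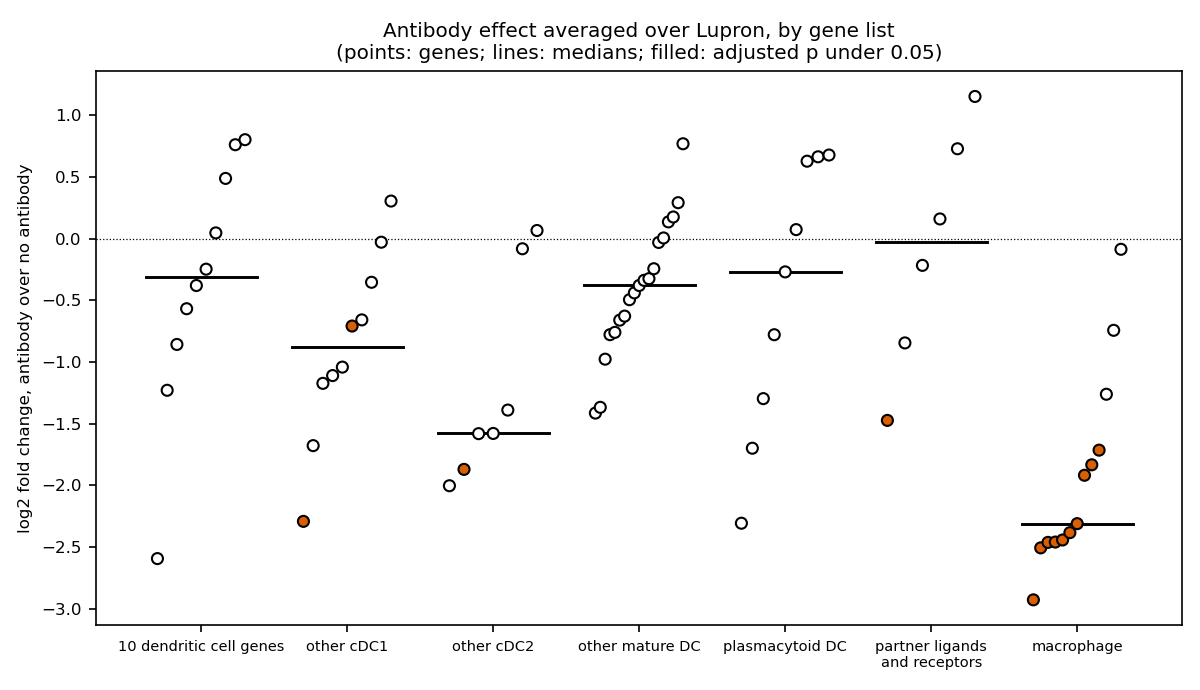
Antibody effects averaged over Lupron, as log2 fold change (antibody over no antibody), for the 10 genes, 5 lists of related genes and macrophage markers. Points are genes, lines are medians and filled points passed at an adjusted p under 0.05. Filled points are 0 of 10, 2 of 10, 1 of 7, 0 of 19, 0 of 9, 1 of 6 and 10 of 13 from left to right. Among all tested genes, 1.87% passed.

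Markers of other cells were counted in the same way. None of 7 T cell genes passed (median −0.79), and their summed level was 15.9 to 31.7 CPM with anti-CSF1, 37.4 to 66.2 CPM with Lupron, 14.8 to 31.0 CPM with the combination and 11.3 to 40.2 CPM with IgG. T cells carry Ccr7 too, and their part in its values was not tested. Of 7 monocyte genes F13a1 fell (median −1.30), and of 6 B cell genes Cd22 fell (median −1.15). None of 9 endothelial (median 0.41), 8 fibroblast (median 0.45) or 8 smooth muscle genes (median −2.35) passed. None of 5 prostate secretion genes (median −3.17) or 8 prostate epithelium genes (median −1.08) passed. Without IgG replicate 3, the medians were −0.37 for the 10 genes, with 0 calls, −1.50 for smooth muscle, −1.77 for prostate secretion and −0.41 for prostate epithelium. Without IgG replicate 1, all 8 smooth muscle genes were called lower, as were 2 of 6 prostate secretion genes (Pigr and Sbp) and 2 of 8 prostate epithelium genes (Epcam and Cdh1), and the endothelial gene Cldn5 was called higher. F13a1 passed in 4 of 12 fits that each omitted a tumour. The tumours omitted in these were replicates 1 and 3 of IgG, replicate 3 of Lupron and replicate 1 of the combination. Ccr2 was a second called monocyte gene without IgG replicate 1 or 3, and the monocyte median was −0.18 without IgG replicate 2.

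How alike the 10 genes were across tumours was described by the mean absolute difference of their ranks over the 12 tumours, which had a median of 3.83 to 4 between each of them and 12893 genes with a mean of at least 1 CPM. The most alike pairs among the 10 were Batf3 with Ccr7 and Ccr7 with Ccl17, at 1.83 ranks, and the next was Xcr1 with Clec9a, at 2 ranks. The least alike were Cd209a with Fscn1, at 5.17 ranks, and Clec9a with Ccl22, at 5 ranks. These tumours share scaling and composition, so the figures are a description only.

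The 12893 genes left out predicted genes and antigen receptor segments. Among them, those nearest to Clec9a in rank were Card9 (0.833), Arhgap15 and Arhgap4 (1 each). Those nearest to Batf3 were Cd300lf and Cep152 (0.833 each). Ccr7 was nearest to Serpina3f (0.833), Icos (1.17) and Btla (1.33), and Xcr1 to Rhoh, Tnfrsf14 and Zfp771 (1.33 each). Fscn1 was nearest to Fhl3, Lix1l and Mov10 (0.333 each). Cd209a was nearest to Myocd (0.667), a regulator of smooth muscle genes, then to Cd163, a macrophage scavenger receptor, and Dexi (0.75 each). Flt3 was nearest to Gbp4, Pate4 and Tbc1d10c (1.33 each), Zbtb46 to C1ql3 and Gimap8 (1.67 each), Ccl17 to Skap1 (1.17) and Ccl22 to Rpn1 (1.17).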

How the data were processed

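RNA from 12 mouse prostate tumours, 3 in each of 4 groups taken from the sample titles, was sequenced from NuGen Ovation libraries, per the labels' protocols. Reads were processed with bcl2fastq 2.20.0.422, cutadapt 1.8.1 and HTSeq 0.6.1 on build mm10, per the submitters' processing notes. No source used here names the aligner, annotation or strand setting, so reads of overlapping genes may be shared. The authors deposited raw counts per gene symbol, with no normalization, for 23479 symbols. Labels do not say whether replicates came from separate mice, so p-values measure the spread between these samples.

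The tests were run with edgeR 4.0.16 under R 4.3.3 (TMM scaling, filterByExpr, robust quasi-likelihood fit of 4 group means to all 12 libraries), which tested 15082 genes, with Benjamini-Hochberg adjustment over all of them. For 3 tumours against 3, an exact permutation test cannot go below 0.1, so tests of single genes used this fit. Exon lengths came from the GENCODE annotation of the same build, and promoters from RefSeq. No 2 libraries were duplicates: over 66 pairs, chi-square over its degrees of freedom was at least 38.0. Alternatives were DESeq2 1.42.0, RLE or upper-quartile scaling, other filters, a replicate block and leaving out each library. The genes and lists were chosen with earlier results of these data known. Genes named beyond the 10 were the up to 4 with the smallest p in a list, the nearest by rank, and others chosen after their values were seen. A total of 4 symbols were matched by an older name.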

Additional observations from a re-analysis of the deposited data

How the results depend on the processing

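Of the 10 genes, Cd209a was the 1 that another setting called. DESeq2 called it for the averaged antibody effect (−2.70), the interaction (5.98) and anti-CSF1 against IgG (−5.69), 1 member in each. Direction changed in a pair of other settings: upper-quartile scaling gave −0.035 for the antibody effect on Ccr7, and adding 1 count in place of 0.5 gave 0.30 for Cd209a over Csf1r. Over the 12 fits that each left out 1 library, the calls among the 10 genes ranged from 0 to 1 for the averaged antibody effect and for anti-CSF1 against IgG, and were 0 in the other comparisons. In those fits the antibody effect on Ccr7 ranged from −0.23 to 0.61 and the Cd209a ratio to Csf1r from −0.70 to 0.51. The Lupron effect ranged from −0.29 to 0.25 for Fscn1, from −0.13 to 0.23 for Zbtb46 and from −0.022 to 0.68 for Clec9a. The cause of these shifts was not tested.

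Counts over all genes moved more. The averaged antibody effect called 1425 genes by DESeq2 and 151 with the replicate block, and 65 to 1577 without 1 library. Whether replicate numbers pair the tumours was not settled. Each gene's group mean was first subtracted from its log2(CPM + 1), and only tumours of different groups were compared. On these deviations, same-numbered tumours correlated at −0.30 to 0.51, with 8 of 18 pairs over 0.1. Tumours with different numbers correlated at −0.64 to 0.56. Of 12 tumours, 6 correlated best with a tumour of their own number, and no chance level was worked out. The block called 0 genes for anti-CSF1 against IgG and for the combination against IgG. DESeq2 called 12 genes for averaged Lupron, 188 for the interaction, 1841 for anti-CSF1 against IgG, 236 for the combination against Lupron, 404 for Lupron against IgG, 6 for the combination against anti-CSF1 and 2094 for the combination against IgG. Anti-CSF1 against IgG called 2 genes with RLE, upper-quartile or secretion-free scaling or the filter of 1 CPM, and 0 with its own groups only. The combination against Lupron called 5 (RLE), 7 (upper-quartile), 2 (no filter), 5 (1 CPM) and 204 (own groups only). The combination against IgG called 3 (RLE, secretion-free scaling, no filter, 1 CPM), 4 (upper-quartile) and 0 (own groups only). Leaving out 1 library gave 0 to 2 genes for averaged Lupron, 0 to 5 for the interaction, 0 to 2611 for anti-CSF1 against IgG, 0 to 210 for the combination against Lupron, 0 to 653 for Lupron against IgG, 0 to 2213 for the combination against IgG and 0 for the combination against anti-CSF1. Counts of 4 to 235 per library for Ccr7, and of 0 to 105 for Cd209a, limit the precision of the low genes.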
